A study of Mus musculus with 14 samples.

Results

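Of the 4303 intervals that held an m6A peak in male mouse liver, 1158 (26.9%) held a peak from at least 2 of the 4 liver libraries, and these recurring intervals are the subject here. They were found by joining all liver peaks that overlapped by at least 1 bp, so that 656 intervals held peaks of 2 libraries, 245 of 3 libraries and 257 of all 4 libraries. The other 3145 intervals came from a single library. The members were chosen by the recurrence of peak calls in the liver libraries, and the fold enrichments and scores belong to those same calls, so these values are given as a description, with no test.

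The study profiled N6-methyladenosine (m6A) by sequencing RNA pulled down with an anti-m6A antibody (the IP library) beside the same RNA without pull-down (the input). The livers came from male C57BL/6 mice aged 8 weeks, 2 labelled cKO (replicates 2 and 3) and 2 labelled WT (replicates 2 and 3), each with 1 IP and 1 input library. In cKO mice, Cre driven by the albumin promoter removes floxed Mettl3 from hepatocytes, so the other cells of the liver keep the gene. The study's methods write the genotypes as Alb-cre with floxed Mettl3 for cKO and Alb-cre Mettl3-/- for WT, so the Cre is named in both groups. Isolated hepatocytes, with 1 library labelled cKO and 1 labelled WT (replicate 1) and so no replicates, served for the overlap and for side-by-side values.

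METTL3 is the catalytic subunit of the complex that methylates adenosines in mRNA, and METTL14 is its partner in binding RNA. The methylated adenosine usually sits in a short context of which GGAC is the best known form, and m6A in mRNA is known to gather around stop codons and in long exons, where YTH-domain and other reader proteins bind it. A peak is a stretch where the IP held more fragments than the input, and fold enrichment is the ratio of the 2 as the authors' peak caller gave it.

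The libraries differed in ways that touch every count below. The inputs held an estimated 3314588 and 5875156 fragments on genes in livers labelled cKO, against 3261253 and 3620784 in WT livers, while the depth of the IP libraries is unknown. No liver peak reached a false discovery rate below 52.6%, and the weakest liver peaks had scores of 3.03 to 3.05 (minus 10 times the log10 of the caller's p-value), where the hepatocyte lists, with 17277 peaks in cKO and 17175 in WT, started at scores of 40.04 and 40.11. WT 2 stood apart with 1586 peaks that no other library shared, and cKO 3 stood apart because its unshared peaks were its stronger ones, with a median fold enrichment of 5.77 for shared and 7.87 for unshared peaks. Mettl3 mRNA did not follow the labels. It stood at 26.3 and 14.7 FPKM (fragments per kilobase of transcript, scaled to the mapped fragments of the library) in the livers labelled cKO, against 8.43 and 10.6 FPKM in WT livers, and Mettl3 held no peak in any library. The gene's FPKM is not a measure of the deleted exons alone. All 4 genes that the study follows were lower in both livers labelled cKO than in both WT livers. Egfr, for one, stood at 19.6 and 26.0 FPKM in livers labelled cKO, against 204 and 216 FPKM in WT livers. The single hepatocyte libraries had the other order for these 4 genes, with Egfr at 183 FPKM in the library labelled cKO and 38.04 FPKM in the one labelled WT. The genotypes are therefore named below as labels.

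The sequences below are chosen examples of recurring intervals at exon scale. They are the stretch that the peaks of all 4 liver libraries had in common, read from the strand of the listed gene in RefSeq's GRCm38.p6, with GGAC in capitals. Col22a1, Prdm1 and Rdx follow from the rule for the most enriched intervals in coding sequence, and Ubr4, Ksr1, C3 and Myh6 were added after their values were seen, as intervals with a GGAC, in a gene with little RNA, in a major liver gene and in a heart gene. All 7 lie in coding sequence, and all but the one of Prdm1 fill an exon from border to border. They are not typical in this, as 590 of the 1158 members were centred in coding sequence. By library, 25.9% (WT 2) to 35.6% (cKO 2) of the peaks in recurring intervals filled a whole exon. The deposited borders are cut at exon ends.
Col22a1, exon 48 of 64, chr15:71846170-71846223, minus strand: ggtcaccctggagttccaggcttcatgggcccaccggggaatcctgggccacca
Prdm1, exon 8 of 8, chr10:44440200-44440242, minus strand: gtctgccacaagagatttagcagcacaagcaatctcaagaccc
Rdx, exon 10 of 14, chr9:52073154-52073284, plus strand: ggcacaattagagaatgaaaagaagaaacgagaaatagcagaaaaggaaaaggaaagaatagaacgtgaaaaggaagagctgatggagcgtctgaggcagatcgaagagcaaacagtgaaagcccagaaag
Ubr4, exon 75 of 106, chr4:139458095-139458233, plus strand: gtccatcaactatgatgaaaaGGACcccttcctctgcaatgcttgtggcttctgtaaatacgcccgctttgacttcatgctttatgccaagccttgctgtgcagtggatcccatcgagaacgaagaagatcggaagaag
Ksr1, exon 12 of 19, chr11:79028475-79028523, minus strand: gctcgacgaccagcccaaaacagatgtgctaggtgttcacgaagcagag
C3, exon 28 of 41, chr17:57212605-57212761, minus strand: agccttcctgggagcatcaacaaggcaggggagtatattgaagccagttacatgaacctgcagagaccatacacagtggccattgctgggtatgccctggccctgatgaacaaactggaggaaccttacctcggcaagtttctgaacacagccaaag
Myh6, exon 36 of 39, chr14:54944278-54944553, minus strand: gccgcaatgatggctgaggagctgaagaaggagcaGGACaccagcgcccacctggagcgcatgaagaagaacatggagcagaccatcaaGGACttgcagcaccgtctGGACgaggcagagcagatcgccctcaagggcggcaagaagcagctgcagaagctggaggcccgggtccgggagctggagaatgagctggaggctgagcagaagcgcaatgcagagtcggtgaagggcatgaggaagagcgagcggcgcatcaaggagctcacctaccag

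GGAC was searched on the strand of the listed gene only. The Myh6 exon holds it 3 times and the Ubr4 exon holds it once, while the other 5 stretches hold none. Such a match is a description of letters, since 31.7% of 100-base windows along the longest coding transcript of each gene (699647 windows, GENCODE) hold GGAC as well.

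A second set of members lies at genes for microRNAs, and 8 mature sequences are given from RefSeq (GRCm38.p6), with the seed (bases 2 to 8) in capitals. They were picked after the values were seen, as the microRNAs beside the members described below and their relatives with the same seed. Of 24 hairpins within 250 bp of a recurring interval, 21 had a mature sequence there. miR-10a-5p and miR-10b-5p share a seed, as do miR-26a-5p and miR-26b-5p.
miR-26a-5p (Mir26a-2, in Ctdsp2): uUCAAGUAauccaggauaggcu
miR-26b-5p (Mir26b, in Ctdsp1): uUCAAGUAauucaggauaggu
miR-10a-5p (Mir10a, at Hoxb4): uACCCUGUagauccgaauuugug
miR-10b-5p (Mir10b, at Hoxd4): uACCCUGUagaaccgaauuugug
miR-140-3p (Mir140, in Wwp2): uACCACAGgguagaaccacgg
miR-127-3p (Mir127, opposite Rtl1): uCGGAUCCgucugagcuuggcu
miR-199a-3p (Mir199a-2, in Dnm3os): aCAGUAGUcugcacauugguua
miR-21a-5p (Mir21a, at Vmp1): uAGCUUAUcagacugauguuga

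The recurring intervals were spread over 944 genes, of which 842 held 1 interval and 102 held several. Peaks of at least 1 cKO and 1 WT library lay in 929 of them. Every interval of 3 or 4 libraries holds both genotypes by design, so this count does not measure a tie to genotype. By library, 884 peaks of cKO 2 (54.4% of that library), 709 of cKO 3 (62.9%), 838 of WT 2 (34.6%) and 651 of WT 3 (61.9%) lay in them. Among intervals of 2 libraries, the pair of cKO 2 with WT 2 gave 163 and the pair of cKO 3 with WT 3 gave 25. The pair of the 2 cKO libraries gave 136 and the pair of the 2 WT libraries gave 93. These counts were not scaled to the lengths of the peak lists, which differ, so they do not compare same-genotype with mixed pairs. At the border of the rule, 11 intervals of 2 libraries rested on 10 bp of overlap or less (the smallest was 1 bp, the median 160.5 bp), and 2 single-library intervals ended within 10 bp of another library's peak. Over all 2-library intervals the median fold enrichment was 3.25 for the weaker and 7.32 for the stronger peak, and it was 3.75 for single-library intervals.

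**Figure D1:**
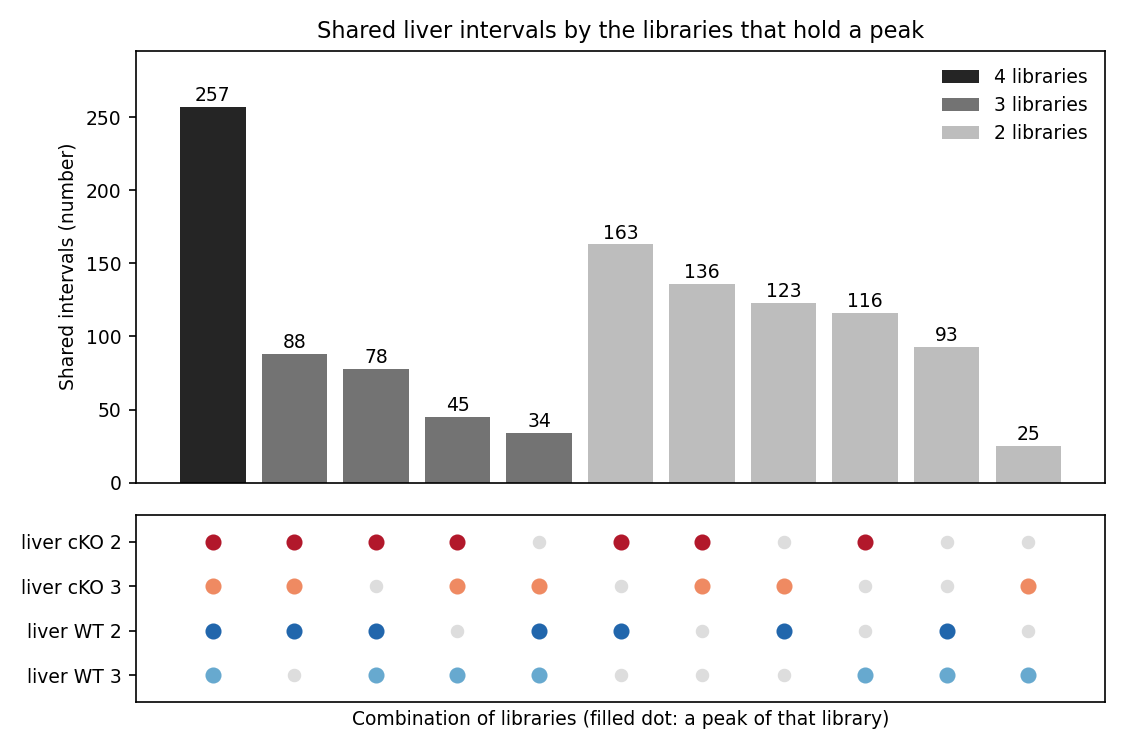
Number of recurring intervals (vertical axis) for each combination of liver libraries, with filled dots below each bar marking the libraries that held a peak. The 257 intervals of all 4 libraries form the tallest bar. The cKO pair has 136 and the WT pair 93, beside mixed pairs with 163 and 25, as counts not scaled to the lengths of the peak lists.

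The intervals of all 4 libraries fell into a small group of very strong ones and a large group of weak ones. Fold enrichment was at least 10 in every library for 66 of the 257 and at least 100 for 19, and the median over the 257 was 7.91 in cKO 2 and 7.33 in cKO 3, against 12.3 in WT 2 and 6.24 in WT 3. Small RNA genes lay within 250 bp of 19 of the 66, so most of the 66 had none nearby. They were frequent at the top of the order. Of the 20 intervals with the highest lowest enrichment, 14 lay within 250 bp of a gene for a microRNA, small nucleolar RNA (snoRNA), transfer RNA or ribosomal RNA, although such genes lay near only 23 of the 257. The median of the lowest enrichment was 131.5 in these 23 and 4.04 in the rest.

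Ctdsp2, which encodes a phosphatase of the RNA polymerase II tail and carries Mir26a-2 in an intron, held a member that reached into the hairpin (chr10:126995613-126995745, mm10). Its fold enrichment was 2947 and 1072 in livers labelled cKO, against 655 and 2468 in WT livers, so the genotypes overlapped. The hepatocyte lists held it at 69.3 in cKO and 296 in WT. Ctdsp1, which carries the sister hairpin Mir26b, held a member in coding sequence, 245 bp from that hairpin. This member was found in the 2 cKO libraries alone, at 838 and 258.

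Wwp2, which encodes a ubiquitin ligase, held a member next to Mir140 (chr8:107551337-107551491), a microRNA best known from cartilage. It stood at 2527 and 509.7 in livers labelled cKO, against 1428 and 1582 in WT livers. In hepatocytes it was far lower, at 7.87 in cKO and 84.1 in WT. Dnm3os, a noncoding RNA that is the precursor of Mir199a-2, showed the same order of tissue and cells, with 2174 and 294 in livers labelled cKO, 210.2 and 2020 in WT livers, 19.1 in cKO hepatocytes and 61.7 in WT hepatocytes. Within each genotype, the 2 livers differed more for Dnm3os than the genotypes did.

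Rtl1, an imprinted gene of retrotransposon origin that acts in the placenta, was listed at 0 FPKM in all 4 liver inputs, yet held a member of 417 bp (chr12:109592674-109593090). The enrichment was 1639 and 268 in livers labelled cKO, against 313 and 237 in WT livers. Mir127 lies in the same stretch on the opposite strand, and the peak lists give no strand, so RNA of Rtl1 and RNA of the microRNA precursor cannot be told apart.

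Vmp1, which encodes a membrane protein of autophagy and ends next to the Mir21a hairpin, held a member of 812 bp at 512 and 202 in livers labelled cKO, against 107 and 559.6 in WT livers. The Hox genes Hoxb4 and Hoxd4, patterning factors of the embryo, held members beside Mir10a and Mir10b. Hoxb4 reached 234 and 1393 in livers labelled cKO, against 1856 and 25.2 in WT livers. Hoxd4 reached 39.1 and 179 in livers labelled cKO, against 19.1 and 178 in WT livers. The replicates of a genotype thus lay further apart at both Hox genes than the genotypes did. Vmp1, Hoxb4 and Hoxd4 were picked for their microRNAs after the values were seen.

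Other members of the strong group lay over snoRNA or ribosomal RNA genes. Taf1d, which encodes a factor of RNA polymerase I, held a member over its snoRNAs at 547 and 159 in livers labelled cKO, against 2345 and 1424 in WT livers. This was an interval where both WT livers lay above both cKO livers. Rabggtb, which encodes a subunit of the enzyme that prenylates Rab proteins, held one over Snord45c at 151 and 369.7 in livers labelled cKO, against 297 and 393 in WT livers. Tmem38b, an ion channel gene of the endoplasmic reticulum, held one over the 5S ribosomal RNA copy n-R5s185 at 592 and 780.1 in livers labelled cKO, against 416 and 1346 in WT livers. For Rabggtb and Tmem38b the genotypes overlapped.

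4 of the most enriched members had no small RNA gene nearby. Col22a1, a collagen of tissue junctions, was listed at 0 FPKM in every liver input, and its exon printed above stood at 1527 and 535 in livers labelled cKO, against 1173 and 821.5 in WT livers, with 533 in cKO hepatocytes and 743 in WT hepatocytes. Prdm1, a transcriptional repressor of lymphocyte and epithelial differentiation, was at 0 and 0.345 FPKM in inputs labelled cKO and at 0 FPKM in both WT inputs, with enrichments of 294 and 248 against 398 and 203.5. Rdx encodes radixin, which links actin to the membrane of the bile canaliculus, and was well expressed at 32.3 and 49.5 FPKM in inputs labelled cKO, against 41.9 and 41.4 FPKM in WT inputs. Its enrichment had the widest range of these 4, with 1073 and 255 in livers labelled cKO, against 4164 and 159 in WT livers. Rnf103, a ubiquitin ligase gene, held a member in its 3' untranslated region (UTR) at 533 and 186 in livers labelled cKO, against 849 and 478 in WT livers.

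**Figure D2:**
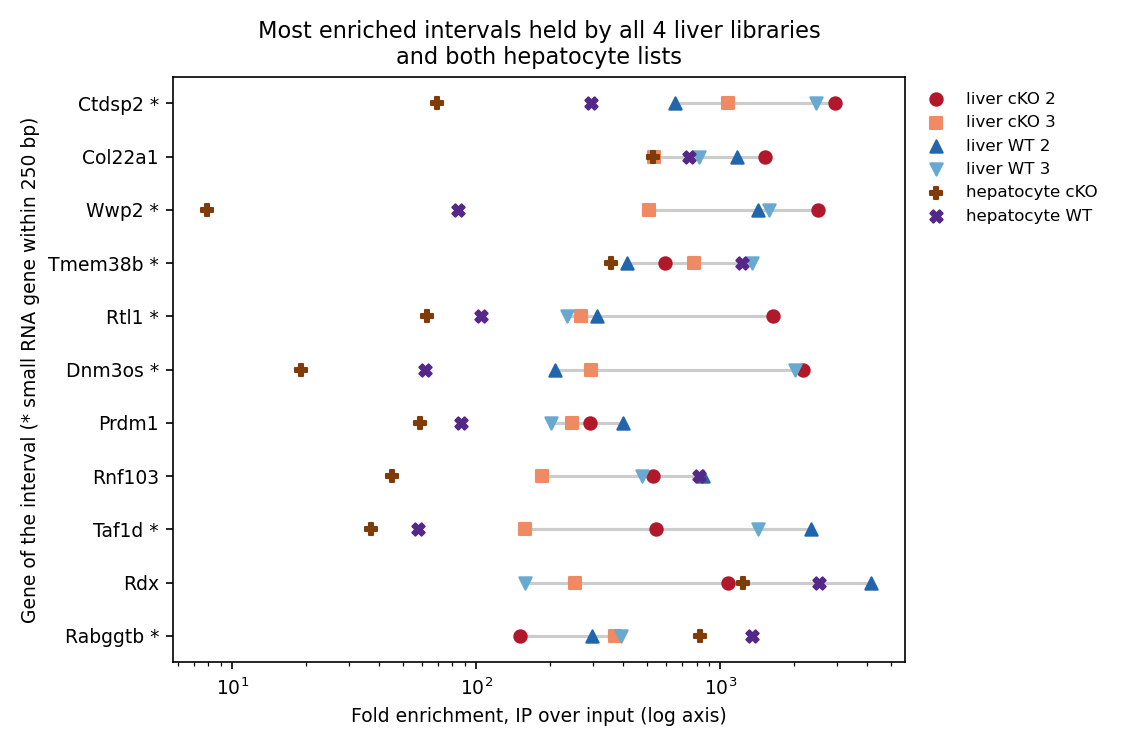
Fold enrichment of IP over input (horizontal log axis) for the 11 named intervals with the highest lowest value among those held by all 4 liver libraries and both hepatocyte lists, 1 mark per library, with a grey line over the liver libraries. A small RNA gene lies within 250 bp of 7 of them, and the hepatocyte marks of Wwp2 (7.87 in cKO, 84.1 in WT) lie well below its liver marks.

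Among the members added for their sequence, Ubr4, a ubiquitin ligase gene of the N-degron pathway, stood at 1913 and 413 in livers labelled cKO, against 255 and 75.4 in WT livers, so both cKO livers lay above both WT livers. Ksr1, a scaffold of the Ras pathway with 0.228 and 0.924 FPKM in inputs labelled cKO and 0.368 and 0.764 FPKM in WT inputs, stood at 125 and 109 against 171 and 105. Over the 257 intervals of all 4 libraries, both cKO livers lay above both WT livers in 25, both WT livers lay above both cKO livers in 40, and the genotypes overlapped in 192. The median of log2 enrichment, cKO over WT, was -0.24.

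The overlap with the hepatocyte lists was highest among the strongly enriched intervals. Of the 1158 members, 381 (32.9%) overlapped a hepatocyte peak and 175 (15.1%) overlapped peaks of both lists, beside 31.9% and 11.8% of the single-library intervals. Both lists held 10.8% of the intervals of 2 libraries, 15.5% of those of 3 libraries and 25.7% of those of all 4 libraries. Overlap with at least 1 of the lists differed less, at 31.6%, 32.2% and 37.0% in the same order. Within the intervals of all 4 libraries, 44 of the 66 strong ones (66.7%) were in both hepatocyte lists, against 22 of the 191 others (11.5%).

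To compare peaks under the same conditions, shared and unshared peaks were set against each other within each library, which gives 4 differences. The smallest p that an exact permutation test of their signs can give is 0.13 (rounded). A shared interval gives peaks to at least 2 libraries, so the 4 differences are not independent, which the test takes them to be. The share of peaks that overlapped a hepatocyte peak was 32.0% of shared and 36.1% of unshared peaks in cKO 2, and 34.3% and 51.0% in cKO 3. It was 34.0% of shared and 24.8% of unshared peaks in WT 2, and 32.9% and 32.4% in WT 3. The mean difference was -2.77 ± 10.8 percentage points (SD, n = 4 libraries; exact permutation, two-sided, p = 0.75), a spread larger than the difference. It turned to 6.51 points when peaks were compared within quartiles of their gene's FPKM to 1.52 points with the cKO hepatocyte list alone, to 0.867 points without cKO 2 and to 1.78 points without cKO 3.

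Shared peaks lay in genes with less RNA in every library. The median gene level, as log2(FPKM + 1) in the library's own input, was 1.22 for shared and 2.62 for unshared peaks in cKO 2, and 1.07 and 3.34 in cKO 3. It was 1.45 for shared and 2.38 for unshared peaks in WT 2, and 1.37 and 2.19 in WT 3. All 4 libraries had the lower median for shared peaks, by -1.35 ± 0.66 on the log2 scale (SD, n = 4; exact permutation, two-sided, p = 0.13, the smallest p possible). Among the 1105 members whose gene had an input value, 333 (30.1%) were in genes below 1 FPKM in all 4 inputs, 126 of them in genes listed at 0 throughout. This share climbed with recurrence, with 15.5% of single-library intervals, 23.9% of those of 2 libraries, 33.5% of those of 3 and 42.9% of those of all 4. The input is the denominator of the peak calls, and its part in which peaks recur was not tested.

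3 further shares were compared after the values had been seen and have no test. Genes below 1 FPKM in the own input held 47.7% of shared and 28.5% of unshared peaks in cKO 2, 48.0% and 18.5% in cKO 3, 42.0% and 26.1% in WT 2, and 44.5% and 25.3% in WT 3. Small RNA genes lay within 250 bp of 4.30% to 5.53% of shared peaks, against 0.676% to 1.20% of unshared peaks. Peak centres lay in a 5' UTR for 17.9% to 20.2% of shared peaks, against 9.69% to 13.5% of unshared peaks, where the hepatocyte lists had 4.52% in cKO and 5.03% in WT. None of these 3 ranges overlapped between shared and unshared peaks.

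**Figure D3:**
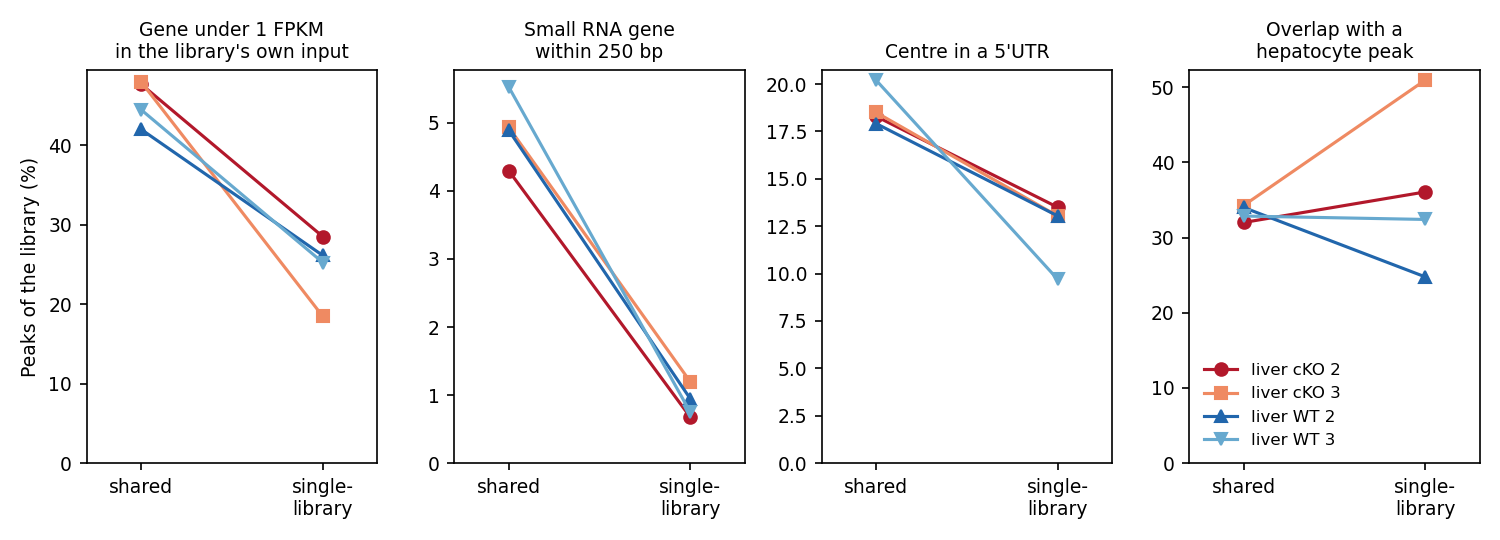
Share of each liver library's peaks (vertical axes, percent, from 0) that lie in a gene below 1 FPKM, near a small RNA gene, in a 5' UTR or on a hepatocyte peak, for shared peaks (left) and unshared peaks (right), 1 line per library. The first 3 panels fall from left to right in all 4 libraries, and in the last panel the 2 cKO lines climb while those of WT 2 (34.0% and 24.8%) and WT 3 (32.9% and 32.4%) descend.

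The 3' UTR had the reverse order of the 5' UTR, with 22.5% to 25.9% of shared peaks, against 28.8% to 36.0% of unshared peaks, a comparison made after the values were seen and without a test. GGAC lay in the central 100 bp of 32.0% of shared and 35.7% of unshared peaks in cKO 2, 31.4% and 34.9% in cKO 3, 33.8% and 35.3% in WT 2, and 30.03% and 38.7% in WT 3. Shared peaks thus held it less often in each library, by -4.36 ± 3.01 points (SD, n = 4, exact permutation, two-sided, p = 0.13). The mean difference was -7.18 points without WT 2 and -2.73 points without WT 3, and cKO 3 turned to 0.916 points without cKO 2 and to 1.10 points in genes of at least 1 FPKM. In peaks of at least 100 bp, WT 2 had the other order, with 38.7% of shared and 37.7% of unshared peaks. The hepatocyte lists had 41.2% in cKO and 42.5% in WT for such peaks. Over the 4 liver libraries the range was 33.5% to 38.7% of shared and 37.7% to 41.6% of unshared peaks of this width. All lay above the 31.7% of 100-base transcript windows, while shorter peaks were searched over fewer bases than those windows. Coding sequence held the centre of 56.2% to 59.0% of shared peaks, against 53.9% to 58.1% of unshared peaks (mean difference 1.35 ± 0.94 points, SD, n = 4; exact permutation, two-sided, p = 0.13). In genes of at least 1 FPKM it turned to -1.84 points, with the lower coding share for shared peaks in all 4 libraries, and it was 3.92 points without WT 2 and 2.05 points without cKO 2. These 4 tests form 1 family, with Benjamini-Hochberg adjusted exact permutation p-values of 0.167, 0.167 and 0.167 for expression, GGAC and coding share, and 0.75 for the hepatocyte overlap. By interval, 590 members were centred in coding sequence, 278 in 3' UTRs, 205 in 5' UTRs and 85 in none of these. Near stop codons, within 200 bases, lay 13.7% to 18.04% of shared peaks, against 15.2% to 19.1% of unshared peaks.

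Outside the multigene families, the 8 genes with 5 or more recurring intervals were all genes of muscle proteins. Myh6, the alpha heavy chain of cardiac myosin, led with 17 intervals, all in coding sequence, of which 9 were found in all 4 libraries. Each of the 4 liver libraries had 14 peaks in it and neither hepatocyte list had any. Its input level was 0.583 and 0.604 FPKM in livers labelled cKO, against 0.963 and 0.476 FPKM in WT livers. The exon printed above stood at 5.53 and 7.33 in livers labelled cKO, against 10.6 and 4.81 in WT livers, which is typical of a gene whose members ran between 2.26 and 20.3.

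Myh7, the beta heavy chain and a close copy of Myh6, held 7 intervals although it was listed at 0 FPKM in all inputs, and how reads were divided between the 2 genes is unknown. Myl2, the regulatory light chain of the ventricle, held 6 intervals at input levels of 4.82 and 5.70 FPKM in livers labelled cKO, against 5.73 and 3.78 FPKM in WT livers, and was at 0 in both hepatocyte inputs. Tnnt2, cardiac troponin T, held 6. Actc1, cardiac actin, and Ckmt2, the mitochondrial creatine kinase of striated muscle, held 5 each. None of the intervals of these 6 genes overlapped a hepatocyte peak.

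Tpm1, a tropomyosin gene used by many cell types, held 5 intervals, of which 4 overlapped a hepatocyte peak. Myh11, the myosin of smooth muscle, also held 5, with 12 peaks in cKO 2 and none in cKO 3, against none in WT 2 and 10 in WT 3. Ucp1, the uncoupling protein of brown fat, followed the same 2 libraries with 4 peaks in cKO 2 and 4 in WT 3, and 0 in the others, at 0 and 0 FPKM in inputs labelled cKO and 0.132 and 2.29 FPKM in WT inputs. Recurrence at Myh11 and Ucp1 thus came from 1 library of each genotype. Ucp1 and the grouping by muscle were chosen after the values were seen. In the deposited pathway list for cardiac muscle contraction, also taken up after the values were seen, 13 of 74 genes (17.6%) held a recurring interval, beside 4.04% of all 22481 genes. Their 58 intervals included 27 of all 4 libraries, and 4 overlapped a hepatocyte peak. Which tissue or cells this RNA came from was not tested.

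**Figure D4:**
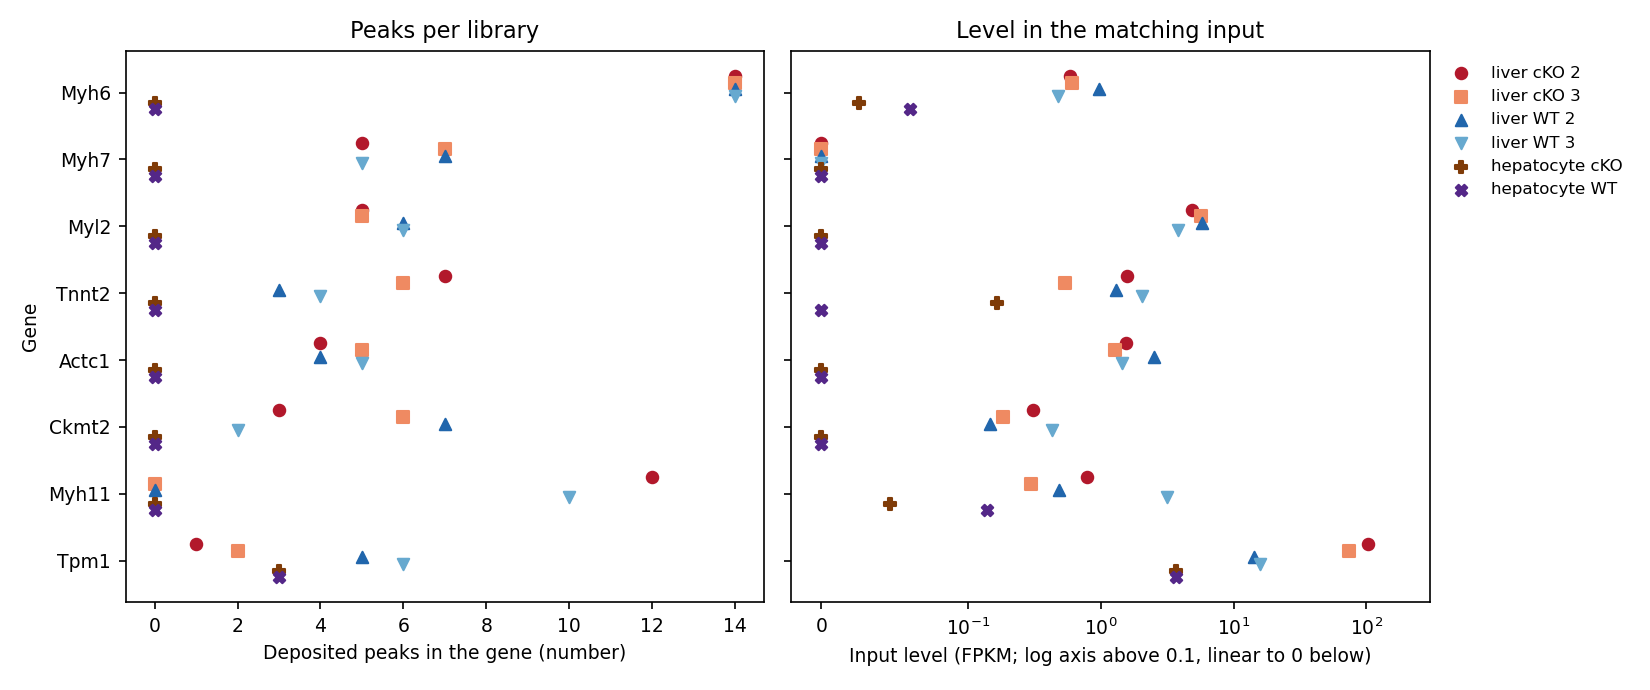
Number of deposited peaks per library (left panel) and input level in FPKM (right panel, log axis above 0.1 and linear to 0 below) for 8 muscle genes, 1 mark per library. Myh6 sits at 14 peaks in all 4 liver libraries and at 0 in both hepatocyte lists, and Myh11 has peaks in cKO 2 (12) and WT 3 (10) alone among the liver libraries.

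Multigene families took 180 of the 1158 members, and their near-identical copies are counted here but not described singly, as reads could be divided among them. The major urinary proteins (Mup), pheromone carriers that male mouse liver secretes, held 79 members in 22 genes, of which 58 were found in both cKO libraries and no WT library, and 0 in both WT libraries and no cKO library. Summed over the family, the input level was 9.57 and 15.4 FPKM in livers labelled cKO, against 7097 and 9834 FPKM in WT livers. The Mup peaks therefore recurred in the livers whose input held almost no Mup RNA. The Cyp3a genes, drug-metabolising enzymes, held 20 members in 4 genes, with 5 in the cKO pair alone and 1 in the WT pair alone.

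Intervals found in both libraries of 1 genotype and neither of the other differed in make-up between the genotypes. Families held 73 of the 136 cKO-only members (53.7%) and 8 of the 93 WT-only members (8.60%), which leaves 63 and 85 outside the families. The weaker enrichment was at least 10 in 55 cKO-only and 8 WT-only members. Hepatocyte peaks overlapped 44 of the cKO-only (32.4%) and 34 of the WT-only members (36.6%).

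After Ctdsp1, the cKO-only members with the highest weaker enrichment lay in Dyrk2, Alas1, Hdlbp and Nadk2. Dyrk2, a protein kinase gene, stood at 207 and 94.0. Alas1, the rate-limiting enzyme of heme synthesis, stood at 58.6 and 59.3, and was abundant in all inputs with 363 and 230.2 FPKM in livers labelled cKO, against 768 and 143 FPKM in WT livers. Hdlbp, the RNA-binding protein vigilin, stood at 159 and 56.2, and Nadk2, the mitochondrial NAD kinase, at 25.8 and 51.5. Hepatocyte peaks of WT overlapped those of Dyrk2 (15.0), Hdlbp (99.5) and Nadk2 (589). Those of cKO hepatocytes overlapped Dyrk2 (14.8) and Nadk2 (13.2).

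The WT-only members with the highest weaker enrichment lay mostly at 5' ends. Kctd6, an adaptor of cullin ligases, stood at 706 and 293, Pi4ka, a phosphatidylinositol kinase, at 644 and 281, and Sos2, an exchange factor of Ras, at 539 and 256, all in 5' UTRs. The zinc finger genes Zfp609 (665 and 188, 5' UTR) and Zxdb (574 and 259.7, coding sequence) completed the 5. Zxdb alone of the 5 overlapped a hepatocyte peak, in the WT list at 61.7.

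For the gene lists, the background is the 4.04% of all genes that held a recurring interval. Of 36 plasma protein genes, with a median of 759 FPKM, 9 held a member (25.0%), and 31 held a hepatocyte peak. C3, the central complement protein, was the only one of them with a member in all 4 libraries, at 111 and 179 in livers labelled cKO, against 146 and 47.9 in WT livers (its exon is printed above). Fgb, the fibrinogen beta chain, stood at 109 and 18.4 in livers labelled cKO and 67.1 in WT 2, and Apob, the structural protein of lipoproteins, at 68.2 and 9.24 in livers labelled cKO and 73.1 in WT 2. Alb, which encodes albumin and had 6112 and 11761 FPKM in inputs labelled cKO against 17598 and 25024 FPKM in WT inputs, held a single weak member, at 3.00 in cKO 2 and 2.58 in WT 3.

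Among 25 genes of the urea cycle and amino acid breakdown, 5 held a member. Aass, the first enzyme of lysine breakdown, was found in all 4 libraries at 3.08 and 887 in livers labelled cKO, against 153 and 601 in WT livers. Arg1, the last enzyme of the urea cycle, stood at 35.6 in cKO 2, against 81.5 and 35.3 in WT livers. Glul, the glutamine synthetase of pericentral hepatocytes, stood at 35.2 in cKO 3 and 34.8 in WT 2. Of 20 genes of fatty acid oxidation, 3 held a member (15.0%). Among them Pdk4, the kinase that turns off pyruvate dehydrogenase in fasting, stood at 7.51 and 3.56 in the WT pair.

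The m6A machinery had 3 of 19 genes (15.8%), and Mettl14 was found in all 4 libraries, weakly, at 5.08 and 2.89 in livers labelled cKO, against 7.51 and 4.37 in WT livers. Ythdc1, the nuclear m6A reader, stood at 132 in cKO 3 and 279 in WT 2, and Zc3h13, a writer subunit, at 4.26 in cKO 2 and 1225 in WT 3. Foxo1, a transcription factor of the fasting response, was the 1 member gene among 25 liver transcription factors, at 94.9 and 124 in livers labelled cKO and 3.88 in WT 2. Iron and metal handling had 3 of 16 genes (18.8%), including the iron exporter Slc40a1, with 1 member at 9.29 and 4.96 in the cKO pair and another at 102 and 18.6 in the WT pair, and the manganese exporter Slc30a10 at 3.39 and 2.31 in livers labelled cKO, against 3.75 and 2.50 in WT livers.

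No member lay in the fixed lists of 20 genes each for fatty acid and triglyceride synthesis, bile acids and drug metabolism, or of 21 genes for glucose and glycogen. In lists of this size 0 is near the background share, so these counts are no result about the lists. The 4 Cyp3a genes that held members are not on the drug metabolism list. The markers of Kupffer cells (11 genes), sinusoidal endothelium (12) and cholangiocytes (8) had none. Of the 11 stellate cell markers, only Des held a member, at 5.63 and 4.37 in the WT pair. The 4 genes that the study follows had no recurring interval. Egfr, the epidermal growth factor receptor, had 3 peaks in cKO 2 and none in the other liver libraries, and Fasn, the fatty acid synthase, had 1 in cKO 3. Gys2, the liver glycogen synthase, and Mlxipl, a glucose-responsive transcription factor, had none. In hepatocytes labelled WT, Egfr held 23 peaks, Fasn 11, Mlxipl 5 and Gys2 3.

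The inputs gave the expression of the member genes between genotypes. The rule does not use these values, but every liver peak was called against these inputs. The shares of member genes called are therefore not independent of how members were chosen. With limma on log2(FPKM + 1) over 10921 genes, 52 of 586 member genes tested (8.87%) passed a Benjamini-Hochberg adjusted p of 0.05, beside 5.2% of all genes. Of them 20 (3.41%) were higher in livers labelled cKO, beside 3.69% of all genes, and 32 (5.46%) were lower, beside 1.51%. Families account for 23 of the 32, of which 15 were Mup genes, and outside the families 27 of 537 genes passed (5.03%), 18 higher and 9 lower. The median log2 difference was 0.38 over the member genes and 0.42 over all genes. With median-ratio scaling, which brought the median of all genes to -0.03, 8 of 580 member genes were higher and 40 lower. Over all 10802 genes tested with this scaling, 164 were higher and 292 lower. Leaving out any 1 of the 4 inputs brought the members called to 0 in 3 cases and 2 in the other (without WT 2), so every call below rests on all 4 libraries.

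5 genes outside the families had the smallest adjusted p among those that fell. C8a, a complement component, was at 1.69 and 0.854 FPKM in inputs labelled cKO, against 239.7 and 175 FPKM in WT inputs (log2 difference -6.53, SE 0.39, limma adjusted p = 0.000885). Car3, carbonic anhydrase 3, was at 15.5 and 20.7 FPKM against 608 and 937 FPKM in WT inputs (-5.32, SE 0.36, limma adjusted p = 0.00169). Glul, the glutamine synthetase, was at 57.5 and 66.8 FPKM in inputs labelled cKO against 459 and 527 FPKM in WT inputs (-2.97, SE 0.31, limma adjusted p = 0.00816). 2810007J24Rik (-7.74) and Ugt3a2 (-3.86), a glycosyltransferase gene, completed the 5. In all of them the groups did not overlap.

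5 further genes led those that rose. Gpc3, a cell surface glypican known from fetal liver, was at 12.1 and 14.4 FPKM in inputs labelled cKO, against 0.114 and 0.438 FPKM in WT inputs (3.49, SE 0.42, limma adjusted p = 0.0127). Thbs1, the matrix protein thrombospondin 1, was at 10.7 and 9.66 FPKM against 0.0346 and 0.297 FPKM in WT inputs (3.27, SE 0.43, limma adjusted p = 0.0157). Tpm1 was at 103 and 74.7 FPKM in inputs labelled cKO against 14.3 and 15.9 FPKM in WT inputs (2.46, SE 0.35, limma adjusted p = 0.0174). Mllt3 (2.75), a transcription elongation factor, and Pygb (3.36), the brain form of glycogen phosphorylase, completed the 5.

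Marker sums of stellate cells, Kupffer cells, cholangiocytes and sinusoidal endothelium were higher in both livers labelled cKO, beside these genes. The sums are of FPKM without further scaling, where the median log2 difference over all genes was 0.42. Summed over 11 stellate cell markers, all detected, the input level was 380 and 395 FPKM in livers labelled cKO, against 152 and 146 FPKM in WT livers, and over 11 Kupffer cell markers, all detected, it was 414 and 619 FPKM against 221 and 190 FPKM in WT livers. The 8 cholangiocyte markers summed to 257 and 223 FPKM with all detected in livers labelled cKO, against 63.4 and 32.3 FPKM with 5 and 6 detected in WT livers. Their medians were far below the sums, at 4.03 and 4.41 FPKM in livers labelled cKO, against 0.494 and 0.206 FPKM in WT livers. The 15 hepatocyte markers, all detected, summed to 31024 and 39142 FPKM in livers labelled cKO, against 39473 and 53277 FPKM in WT livers. The sums of the 12 sinusoidal endothelial markers, all detected, were 212 and 183 FPKM in livers labelled cKO, against 159.9 and 116 FPKM in WT livers. The 10 lymphocyte and red cell markers overlapped between genotypes, at 64.4 and 244 FPKM in livers labelled cKO, against 84.8 and 237 FPKM in WT livers. The part of these cells in the calls was not tested, and in whole liver fewer cells of a type and less RNA per cell cannot be told apart. Nothing in the labels says which samples are separate mice, so the p-values measure the spread between these libraries.

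**Figure D5:**
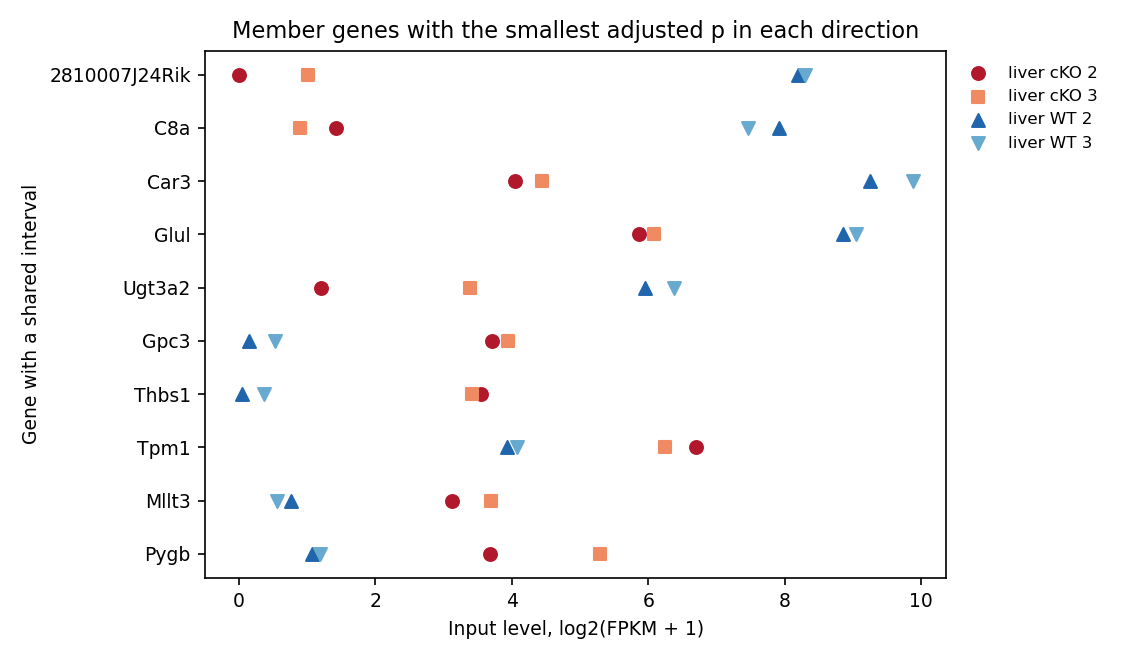
Input level as log2(FPKM + 1) (horizontal axis) of the 10 member genes outside the families with the smallest limma adjusted p, 5 lower and 5 higher in livers labelled cKO, 1 mark per liver input. In every row the 2 cKO marks lie on 1 side of the 2 WT marks, from C8a at 1.69 and 0.854 FPKM against 239.7 and 175 FPKM to Gpc3 at 12.1 and 14.4 FPKM against 0.114 and 0.438 FPKM.

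Genotype-only intervals followed the input in the opposite sense. The 32 member genes with less RNA in livers labelled cKO held 64 recurring intervals, of which 44 (68.8%) were in the cKO pair alone and 0 in the WT pair alone. The 20 genes with more RNA in livers labelled cKO held 25, of which 0 were in the cKO pair alone and 9 (36.0%) in the WT pair alone. In the 534 genes not called, 8.77% were in the cKO pair alone and 9.90% in the WT pair alone. Outside the families, the 9 genes with less RNA had 9 of 12 intervals in the cKO pair alone, and the 18 genes with more RNA had 9 of 23 in the WT pair alone. C8a, Car3, Ugt3a2 and 2810007J24Rik had all their members in the cKO pair, and Thbs1 and Pygb in the WT pair. Peak calls and expression share the inputs, so these counts, made after the values were seen, are a description with no test.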

How the data were processed

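The authors trimmed reads with cutadapt 1.9.3, aligned them to mm10 with HISAT2 2.0.4 (per the submitters' processing notes) and called peaks per library against its input with MACS (version not given in the sources used here), keeping peaks on mRNA exons, where the deposited borders are cut at exon ends. The deposited peak lists hold a score (minus 10 times the log10 p-value), a fold enrichment (IP over input ratio) and a false discovery rate in percent. The deposited expression tables hold FPKM and scaled fragment signal per gene from the authors' Cufflinks and Cuffdiff. The signal served only to estimate depth, as 94.6% to 95.8% of low values were whole multiples of 1 step within 0.02 steps. The authors' own comparisons and the female liver table were not used.

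Peaks were joined with Python 3.11.15 (pandas 2.3.3, numpy 2.4.6, pysam 0.24.0) and placed on coding transcripts of GENCODE. Sequence came from RefSeq's GRCm38.p6, the assembly of mm10. Coordinates are 1-based. An interval takes the gene most of its peaks list, and the strand of that gene, as the lists give no strand. Where a library had several peaks in an interval, the highest enrichment was used. Small RNA genes were 6486 annotated genes, from GENCODE for all types but transfer RNA, which came from RefSeq.

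Expression was tested with limma 3.58.1 (R 4.3.3) on log2(FPKM + 1) with a variance trend, leaving out genes that averaged under 1 FPKM, after the fit was tested on simulated data. That pseudocount understates the change of low genes. Members and gene lists were chosen with earlier results of these data known. The genes named are the 12 intervals of all 4 libraries and both hepatocyte lists with the highest lowest enrichment, the 5 strongest of each genotype alone, up to 3 per gene list, the 5 genes with the most intervals (ties included), the genes the study follows, and the 5 member genes with the smallest adjusted p in each direction. Alternatives are given in the closing section.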

Additional observations from a re-analysis of the deposited data

Results flagged for a closer look

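The share of peaks on a hepatocyte peak, shared minus unshared, was -10.4 percentage points on average in the 2 cKO libraries and 4.84 points in the 2 WT libraries, a gap of -15.2 points. Both cKO libraries had the lower share for shared peaks (-4.07 and -16.7 points) and both WT libraries had the higher share (9.23 and 0.454 points). The difference between genotypes was not tested, and the single value of WT 3 lies near 0.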

How the results depend on the processing

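The number of recurring intervals was 502 when 3 libraries were asked for, 742 (without cKO 2) to 923 (without WT 3) when 1 library was left out, 1154 with peaks joined at 50% of the shorter peak and 1158 within strand. Settings chosen after the data were seen gave 430 with scores of at least 40, 584 with genes of at least 1 FPKM and 1110 without peaks near small RNA genes. The overlap with hepatocyte peaks, shared minus unshared, turned to 6.85 points in genes of at least 1 FPKM, to 1.52 points with the cKO hepatocyte list alone and to 6.51 points within FPKM quartiles, and ran from -5.70 to 1.78 points without 1 library. The coding share turned to -1.84 points in genes of at least 1 FPKM. The cause of these turns was not tested. The differences in expression, small RNA genes, 5' UTRs and genes below 1 FPKM kept their direction in each library under every setting run. The mean GGAC difference also did, but it turned in cKO 3 without cKO 2 (0.916 points) and in genes of at least 1 FPKM (1.10 points), and in WT 2 in peaks of at least 100 bp (1.00 points). A false discovery rate of at most 5% left 0 liver peaks, so it gave no value. Member genes called between genotypes numbered 81 of 586 with the replicate number as a block, beside 9.79% of all genes. The replicate numbers are not stated to pair mice, and deviations of cKO 2 and WT 2 correlated at 0.13. The count was 40 of 586 with a pseudocount of 0.1 FPKM (3.79% of all genes). It was 8 of 800 without a filter on low values (0.107% of all genes) and 48 of 580 with median-ratio scaling (4.22% of all genes). That scaling moved the median of all genes to -0.03, and the calls over all genes to 164 higher and 292 lower, from 403 and 165. The 10 named genes kept their direction throughout, and lost the call in all 40 fits without 1 library and in 8 of 40 other fits. With 2 libraries per genotype, the smallest exact permutation p for a peak contrast was 0.13, and genes near 1 FPKM rest on few fragments.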
